A study of Mus musculus with 8 samples.

Results

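The comparison set the libraries numbered round 1 against those numbered round 2, across every group of the study. Its members were all 8 libraries of the series, 4 in each round, chosen by the round number in their titles. The titles number the libraries, but nothing in the sources used here says what a round is. Litter, pooling of pups, dissection, cell sorting, library preparation and sequencing run therefore cannot be told apart, and whether libraries of a round share animals is not given. The p-values below measure only the spread between these libraries.

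Bulk RNA sequencing of total RNA was made from cells sorted out of the femurs of newborn mice, aged 3 to 5 days. One sorted population is labelled skeletal stem cells, here SSC. The other, bone cartilage stromal progenitors or BCSP, is described as downstream of SSC. Both were taken from wild-type mice and from mice with a knockout (KO) of Tet1, a gene for an enzyme that oxidises methylated cytosine in DNA. Each of the 4 groups, wild-type SSC, wild-type BCSP, KO SSC and KO BCSP, held 1 library of each round. All of them carry the strain name B6;129S4-Tet1tm1.1Jae/J, the line of the targeted allele, and the sources used here name no treatment. The allele is carried by the whole animal in this line as far as is known, and the sex and number of pups are not given in the sources used here. Where 4 values are given for a round, they stand in the order wild-type SSC, wild-type BCSP, KO SSC and KO BCSP. Levels are in CPM, the count of a gene scaled to a fixed library size, and every difference is round 1 minus round 2 on the log2 scale, ± its standard error (SE).

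A growing limb is laid out from the body outwards in segments: the upper segment with the femur, the middle segment with the shin bones, and the hand or foot. Cells keep part of this address as a pattern of homeobox genes, with Meis genes near the body, Hox genes of middle paralog groups further out, and Hoxd13, Hoxa13 and their neighbours in the hand and foot. In the growth plate of such a bone, chondrocytes divide, enlarge under factors such as Foxa2 and Mef2c, and give way to mineralising osteoblasts. Cells taken from tissue with enzymes and sorted are also known to switch on immediate-early, inflammatory and metallothionein genes within a short time.

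Depth ran from 104782544 to 168004119 counts, with 22039 to 25782 genes detected in a library. Col2a1, the main collagen of cartilage, took 24.7% to 30.6% of the counts of a library. Tet1 was counted at 15.6, 21.6, 7.26 and 10.8 CPM in round 1 and at 19.6, 11, 11.8 and 12 CPM in round 2, so the wild-type BCSP library of round 2 lay within the KO range. The allele removes only part of the gene as far as is known, so this count checks the genotype weakly. Of the sort markers, Eng, the gene for CD105, which separates BCSP from SSC, was at 2.7, 48, 2.55 and 44 CPM in round 1 and 3.89, 50.5, 2.53 and 25.7 CPM in round 2. It was higher in every BCSP library than in any SSC library. Ptprc, which marks blood cells, was at most 1.085 CPM, and Tek, an endothelial receptor gene, at most 0.391 CPM. Every library held transcripts of both Xist and Ddx3y, which mark female and male cells. Ddx3y was at 35.6, 37.8, 68.2 and 62.1 CPM in round 1 and 39.7, 23.2, 81.7 and 92.2 CPM in round 2, higher in every KO library than in any wild-type one, and no sex-linked gene on the list of 5 changed with the round.

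The round changed more genes than either labelled factor did. Of 22153 genes tested, 390 (1.76%) passed an adjusted p of 0.05 with edgeR, in a model with a term for each of the 4 groups and a term for the round. Of these, 147 (0.664%) were higher in round 1 and 243 (1.1%) were lower. Both shares are the background for the number of genes that passed in each list below. In the same model, genotype changed 28 genes (0.126%) and population changed 2 (0.00903%). Among the 390, 381 moved in the same direction in all 4 groups, 140 upwards and 241 downwards, and for 290 the 4 libraries of a round did not overlap the other 4. Such a lack of overlap was also found in 3.61% of all tested genes upwards and in 4.01% downwards. Since these genes were chosen by the same contrast, the counts over groups describe them and support nothing further. The number moved with the wild-type BCSP pair: without its round 1 library 3909 genes passed and without its round 2 library 3824, all 390 keeping their direction. It also moved to 209 when the groups were left out of the model, and to 49 within BCSP, 170 within wild type, 1955 within SSC and 3650 within KO alone.

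The plot of single genes by library shows the main groups of genes that differed.

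**Figure D1:**
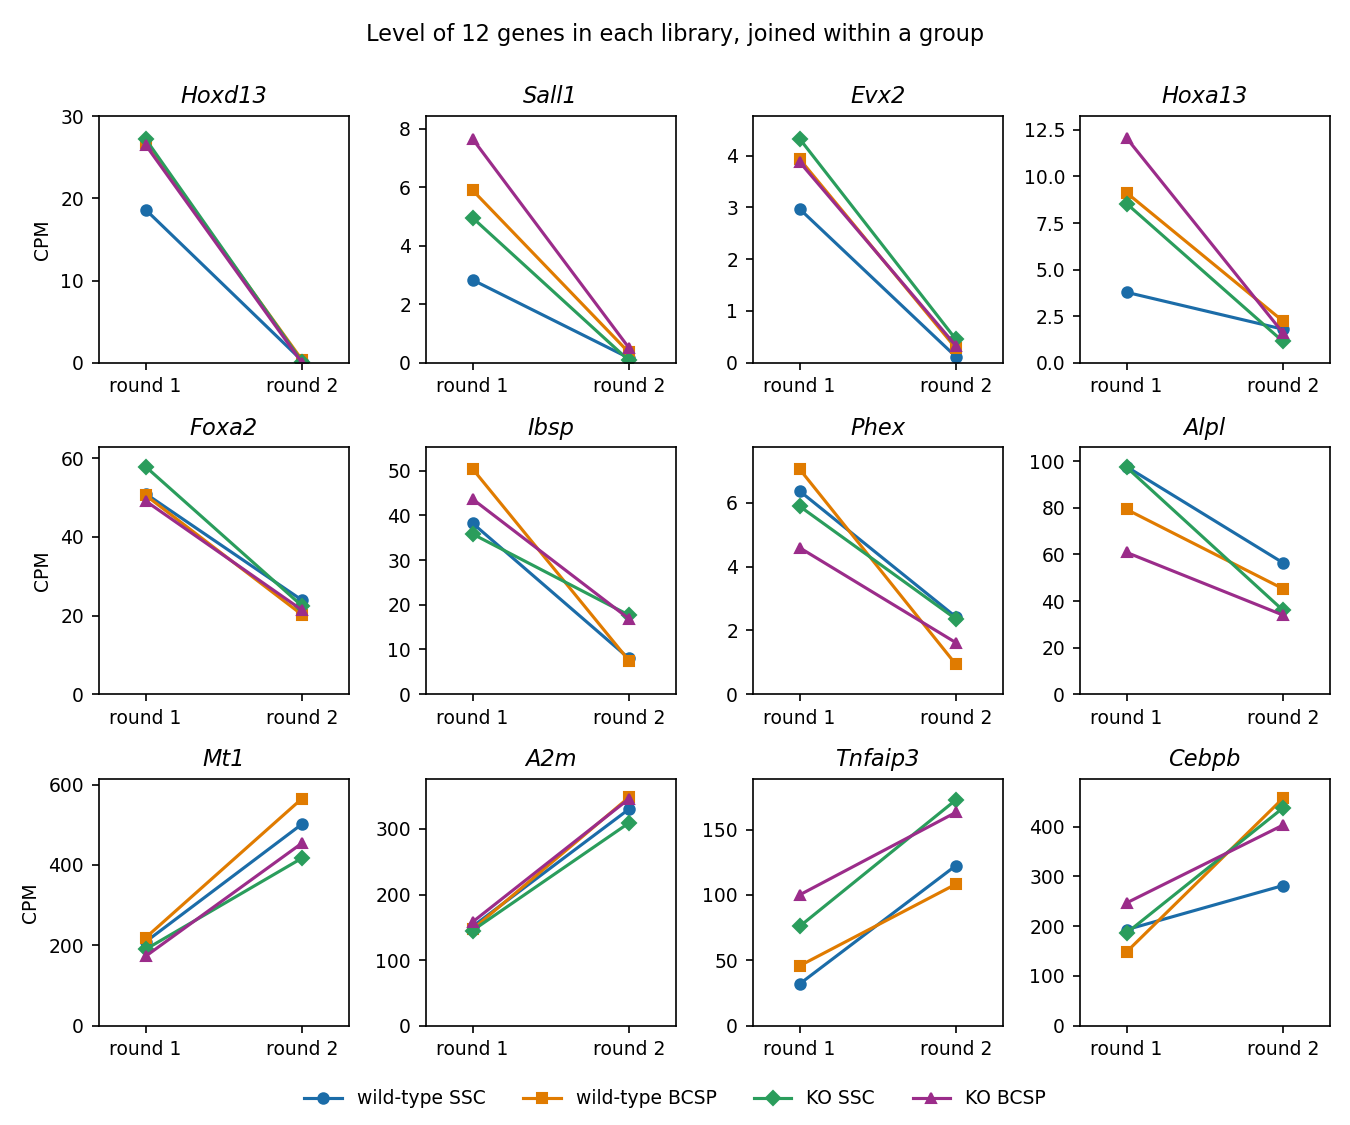
Level of 12 genes in CPM (vertical axes, linear, from 0) in round 1 and round 2, with 1 point per library and a line joining the libraries of a group. In each panel all 4 lines run the same way: Hoxd13, Sall1, Evx2, Hoxa13, Foxa2, Ibsp, Phex and Alpl were higher in every round 1 library than in any round 2 library, and Mt1, A2m, Tnfaip3 and Cebpb were lower.

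Several genes of the hand and foot were counted in all 4 libraries of round 1 and were low or absent in round 2, in samples that are all labelled femur. Hoxd13 (mm10 chr2:74668310-74671599, plus strand), a homeobox gene of digit formation, was at 18.6, 26.7, 27.2 and 26.5 CPM in round 1 and 0.255, 0.349, 0.12 and 0 CPM in round 2. The rounds lay far apart in every group, and the KO BCSP library of round 2 held no count of it. Its difference was 7.21 ± 0.65 (edgeR adjusted p = 0.00244), and means were 24.8 ± 4.11 CPM in round 1 and 0.181 ± 0.153 CPM in round 2 (SD, n = 4). The direction of Hoxd13 held when any 1 library was left out, with differences from 6.69 to 7.68, but its call was lost without either wild-type SSC library (adjusted p = 0.245 and 0.303) and without either wild-type BCSP library (0.102 and 0.0974). Sall1 (mm10 chr8:89027235-89044162, minus strand), a zinc-finger gene of digit and kidney development, was at 2.83, 5.9, 4.96 and 7.66 CPM in round 1 and 0.162, 0.349, 0.0752 and 0.509 CPM in round 2. All 4 pairs fell from round 1 to round 2, and the rounds did not overlap. Its difference was 4.43 ± 0.37 (adjusted p = 4.83e-05).

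Evx2, the homeobox gene next to Hoxd13 and under the same distant enhancers, was at 2.97, 3.94, 4.33 and 3.88 CPM in round 1 and 0.116, 0.279, 0.451 and 0.328 CPM in round 2, a difference of 3.79 ± 0.33. Hoxd12, the neighbour on the other side, had 307 counts over round 1 and 0 over round 2, so that it was at least 112-fold higher against a floor of 3 counts over the group. Hoxa13, the counterpart of Hoxd13 in the Hoxa cluster, was at 3.78, 9.13, 8.55 and 12.1 CPM in round 1 and 1.8, 2.24, 1.14 and 1.61 CPM in round 2, with a difference of 2.23 ± 0.30. Lhx2, a LIM homeobox gene of limb outgrowth, differed by 2.19 ± 0.35. These 6 genes are all those of the list of 11 distal limb genes that passed, each upwards, and 9 of the 11 were above 0 in all 4 groups. The median of the list was 2.23, beside -0.0013 over all tested genes, of which 8.9% were above 0 in all 4 groups and 0.664% passed upwards. Of the others, Tfap2b (4.15 ± 1.16), Sall3 (1.16 ± 0.70), Msx1 (0.27 ± 0.19), Msx2 (-0.24 ± 0.26) and Lhx9 (-0.82 ± 0.28) did not pass. The calls of Sall1, Evx2, Hoxa13, Hoxd12 and Lhx2 held without each of the 8 libraries.

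Some genes that mark the part of the limb near the body went the other way. Meis1, a partner of Hox proteins near the body, was at 4.06, 3.9, 3.55 and 3.22 CPM in round 1 and 8.6, 8.95, 8.1 and 7.76 CPM in round 2. Every round 1 library was under every round 2 library, and the difference was -1.18 ± 0.19 (edgeR adjusted p = 0.0051). Meis2, its close relative, was at 2.37, 3.08, 2.04 and 1.72 CPM in round 1 and 6.7, 4.18, 5.26 and 6.3 CPM in round 2 and differed by -1.30 ± 0.26. Shox2, a homeobox gene needed for the upper limb segment, differed by -0.70 ± 0.15, from 57.1, 49.5, 48.5 and 29.3 CPM to 85.2, 78.5, 72.8 and 57.3 CPM, but its call was lost when any 1 library of the wild-type SSC, KO SSC or KO BCSP pairs was left out (adjusted p up to 0.166). Of 10 tested genes on this list, these 3 passed, all downwards (1.1% of all tested genes did), 8 were below 0, and the median was -0.69. Meis3 (-1.18 ± 0.30) and Irx3 (-0.67 ± 0.17) did not pass.

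Along the Hox clusters the direction depended on the cluster and on the position within it. In the Hoxd cluster, Hoxd11, a gene of the middle segment, was higher in round 1, at 1.49, 2.94, 2.82 and 3.04 CPM against 0.332, 0.474, 0.451 and 0.903 CPM in round 2 (2.29 ± 0.32). Hoxd10 was higher in all 4 pairs without passing (1.54 ± 0.40), and Hoxd9 (-0.38 ± 0.25) and Hoxd8 (-0.39 ± 0.19) did not pass. In the Hoxa cluster, Hoxa11 was at 15.3, 16.6, 17.8 and 20.5 CPM in round 1 and 8.68, 14.4, 7.47 and 5.98 CPM in round 2. It differed by 1.01 ± 0.23 and missed the threshold without the KO BCSP library of round 1 (adjusted p = 0.0542), while Hoxa10 was -0.08 ± 0.15 and Hoxa9 0.15 ± 0.17. All 9 tested genes of the Hoxc cluster were below 0, and 6 of them passed (1.1% of all tested genes passed downwards). Among these were Hoxc12 (-1.66 ± 0.27), Hoxc9 (-1.14 ± 0.20), Hoxc6 (-1.12 ± 0.21) and Hoxc4 (-0.99 ± 0.19). The Hoxc6 call was lost without the KO SSC library of round 2 and the Hoxc4 call without either wild-type SSC library (adjusted p up to 0.0522 and 0.0794). Hoxc10, a gene expressed in the hindlimb and not the forelimb, was at 21.9, 17.6, 16.9 and 18.3 CPM in round 1 and 29.4, 36.1, 31.4 and 33 CPM in round 2 (-0.80 ± 0.16). Its call was lost without either KO SSC library (adjusted p up to 0.0846). Gene models overlap in this cluster and the strand of counting is not given, so reads of neighbours may be shared.

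**Figure D2:**
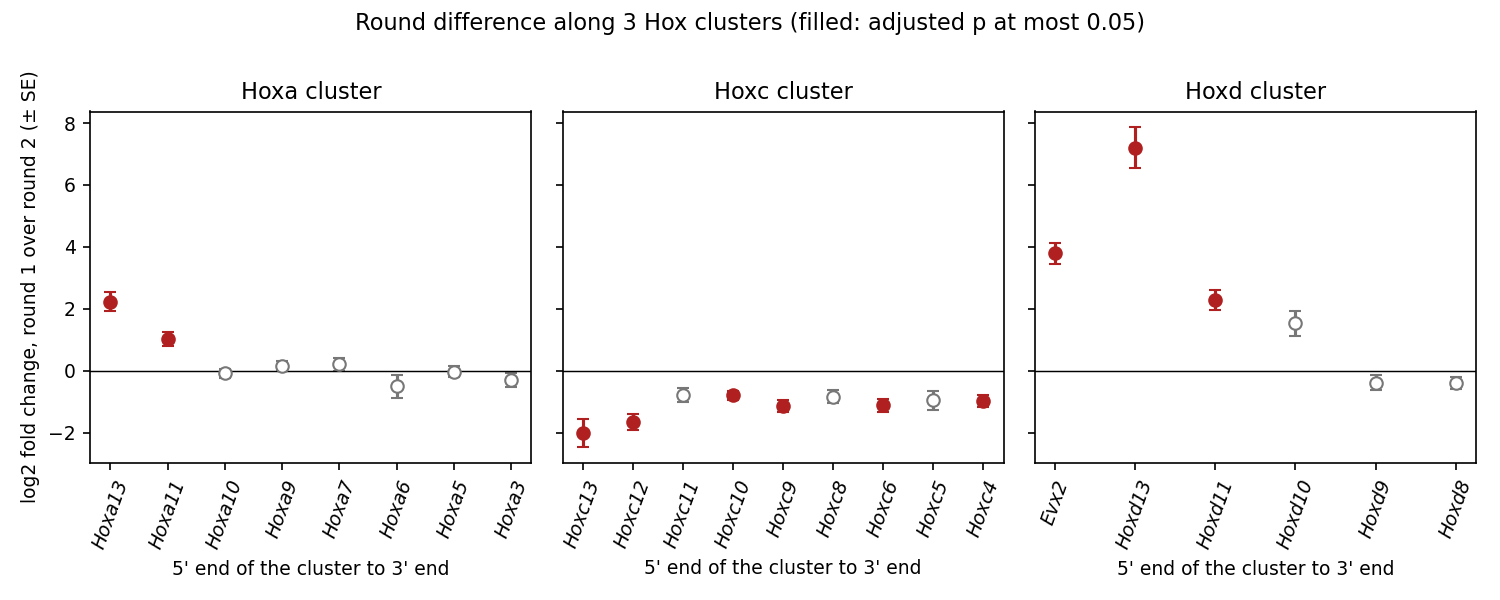
Log2 difference between rounds (vertical axis, round 1 over round 2, with bars of 1 SE from the edgeR model) for Hox genes and Evx2 of at least 1 CPM in either round, in the order of the genes along 3 clusters (horizontal axis). Filled points passed an adjusted p of 0.05: Evx2, Hoxd13, Hoxd11, Hoxa13 and Hoxa11 lie above 0, and Hoxc13, Hoxc12, Hoxc10, Hoxc9, Hoxc6 and Hoxc4 lie below it.

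Factors that tell hindlimb from forelimb were read beside the Hox genes. Tbx4 and Pitx1, which mark the hindlimb, were counted in every library of both rounds. Tbx4 was at 12.5, 27.6, 27.5 and 38 CPM in round 1 and 18.6, 23.1, 27.5 and 35.4 CPM in round 2 and differed by -0.05 ± 0.17 (edgeR adjusted p = 0.958). Pitx1 was at 58.6, 50.2, 54.4 and 58.8 CPM in round 1 and 67.5, 94, 65 and 71.5 CPM in round 2 and differed by -0.41 ± 0.16 (adjusted p = 0.31). Tbx5, which marks the forelimb, was lower in round 1, at 5.25, 5.73, 5.73 and 6.12 CPM against 8.85, 8.86, 10.6 and 11.1 CPM (-0.78 ± 0.17). The Tbx5 call was lost when any 1 library of the wild-type SSC, KO SSC or KO BCSP pairs was left out (adjusted p up to 0.199).

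On 2 further lists, of limb axis and axial skeleton factors, the members that passed went both ways. Of 9 tested factors of the anterior and posterior limb, 1 passed upwards and 1 downwards, with a median of 0.13. Hand2, a factor of the posterior limb, was at 2.59, 2.54, 2.36 and 2.99 CPM in round 1 and 0.555, 1.34, 0.624 and 0.812 CPM in round 2 and differed by 1.73 ± 0.32. Grem1, a secreted BMP antagonist of the limb bud, was at 27.3, 36.4, 28.1 and 32.7 CPM in round 1 and 50.2, 45.2, 47.2 and 55.7 CPM in round 2 (-0.68 ± 0.15). In both genes the rounds did not overlap, but the Grem1 call was lost when any 1 library other than those of wild-type BCSP was left out (adjusted p up to 0.267). Of 9 tested axial skeleton factors, 1 likewise passed in each direction, with a median of 0.01: Nkx3-2, a repressor in early cartilage, differed by 0.77 ± 0.17 and Tbx18, a T-box factor, by -1.05 ± 0.17. The Nkx3-2 call was lost when any 1 library other than those of wild-type BCSP was left out (adjusted p up to 0.128), and the Tbx18 call held without each of the 8 libraries.

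A few other developmental regulators that were higher in round 1 were singled out after their values were seen. Irx1, an Iroquois homeobox gene, was at 3.82, 3.22, 5.45 and 5.63 CPM in round 1 and 0.316, 0.251, 0.917 and 0.886 CPM in round 2 (3.10 ± 0.30). Its neighbour Irx2 was at 3.61, 4.61, 4.85 and 6.53 CPM in round 1 and 0.826, 0.342, 1.04 and 0.812 CPM in round 2 (2.76 ± 0.31), and both genes kept the rounds apart in every group. Dach1, a nuclear cofactor expressed in the distal limb bud, differed by 3.11 ± 0.37. The calls of these 3 genes, and that of Hand2, held without each of the 8 libraries.

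Several genes of mineralising bone cells were higher in round 1. Ibsp (mm10 chr5:104299171-104311469, plus strand), the gene for bone sialoprotein, which nucleates mineral, was at 38.2, 50.4, 35.8 and 43.7 CPM in round 1 and 8.02, 7.53, 17.7 and 16.9 CPM in round 2. The rounds did not overlap, with the widest step in the wild-type pairs, and the difference was 1.84 ± 0.25 (edgeR adjusted p = 0.00217). Phex, the membrane peptidase of phosphate balance in osteoblasts and osteocytes, was at 6.38, 7.07, 5.9 and 4.6 CPM in round 1 and 2.42, 0.934, 2.36 and 1.62 CPM in round 2 (1.77 ± 0.28). Alpl, the phosphatase that frees phosphate for mineral, was at 97.7, 79.4, 97.5 and 60.9 CPM in round 1 and 56.5, 45.3, 36.1 and 34 CPM in round 2 (0.97 ± 0.16), and its rounds did not overlap.

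Osteocalcin genes moved with them at low levels. Bglap2 was at 2.78, 4.14, 2.7 and 2.59 CPM in round 1 and 0.494, 0.377, 0.676 and 1.12 CPM in round 2 and differed by 2.28 ± 0.37. Reads of Bglap and Bglap2 can be exchanged, as the copies are nearly identical. Spp1, the gene for osteopontin, differed by 0.86 ± 0.16, from 145, 118, 171 and 87 CPM to 88.1, 53.1, 82.8 and 59.9 CPM. The KO BCSP library of round 1 lay just under the wild-type SSC library of round 2, so its rounds overlapped by those libraries.

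On the list of 22 tested osteoblast and mineralisation genes, 18 were above 0, 9 passed, each upwards, with a median of 0.78. Of all tested genes, 49.9% were above 0 and 0.664% passed upwards. The list members that passed besides these 5 were Bglap (1.82 ± 0.41), Mepe (2.74 ± 0.64), Smpd3 (0.78 ± 0.15) and Dlx5 (0.96 ± 0.18), of which the calls depended on 1 pair or more. Bglap and Mepe lost theirs without either wild-type SSC library (adjusted p up to 0.228 and 0.25). Dlx5, a homeobox gene of osteoblast commitment, lost it without either KO SSC library (up to 0.0742), and Smpd3, a sphingomyelinase of mineralising matrix, when any 1 of the 4 SSC libraries was left out (up to 0.0999). The early regulators Runx2 (0.66 ± 0.17) and Sp7 (0.61 ± 0.17) were above 0 in all 4 groups and did not pass. Col1a1, the main bone collagen, was 0.05 ± 0.17 (edgeR adjusted p = 0.959).

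In the cartilage itself, 4 of 18 tested genes of enlarging chondrocytes passed, 3 upwards and 1 downwards (0.664% and 1.1% of all tested genes did). Foxa2 (mm10 chr2:148042877-148046969, minus strand), a forkhead factor of hypertrophic chondrocytes and of the notochord, was at 51, 50.6, 57.9 and 49.2 CPM in round 1 and 23.9, 20.2, 22.5 and 21.4 CPM in round 2. Within a round the 4 libraries were close to one another, and the rounds were well apart. Its difference was 1.24 ± 0.15 (edgeR adjusted p = 0.00127), among the most even of the named genes, from 1.20 to 1.30 when any 1 library was left out. Mmp13, the collagenase of the lower growth plate, was at 11.6, 10.6, 19 and 13.2 CPM in round 1 and 8.56, 3.78, 9.52 and 5.39 CPM in round 2 (1.05 ± 0.20). Mef2c, a factor of chondrocyte enlargement, was at 93.3, 95.3, 78.3 and 71.6 CPM in round 1 and 59.7, 42.7, 40.5 and 53.9 CPM in round 2 (0.79 ± 0.16), and its call was lost without either KO SSC library (adjusted p up to 0.0939).

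Col10a1, the collagen of hypertrophic cartilage, was at 754, 384, 879 and 194 CPM in round 1 and 369.8, 214, 185 and 213 CPM in round 2, and in the KO BCSP pair it was not higher in round 1. Its difference was 0.99 ± 0.28 (edgeR adjusted p = 0.11), so it did not pass. Vegfa, a blood vessel growth factor on the same list, was lower in round 1 (-0.65 ± 0.15). Its call was lost when any 1 library other than those of wild-type BCSP was left out (adjusted p up to 0.417). The list of 18 hypertrophic genes thus had 3 higher and 1 lower, with a median of 0.10. Of 25 cartilage matrix genes, 0 passed with edgeR at the adjusted threshold, where 2 had an unadjusted p under 0.05. DESeq2 called 1 of them and limma-voom 0. Their median was 0.06, and it turned below 0 without a library of the wild-type SSC pair or of the KO BCSP pair (-0.02 to -0.05). Col2a1 was 0.01 ± 0.19, Acan 0.10 ± 0.17 and Sox9 0.07 ± 0.16. In bulk RNA, fewer cells of a type and less RNA per cell cannot be told apart, which holds for every list named here.

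Several metal-response, acute-phase and inflammatory genes were lower in round 1 than in round 2. Mt1 (mm10 chr8:94179082-94180327, plus strand), the gene for a metal-binding metallothionein induced by zinc and stress hormones, was at 208, 219, 189.9 and 173 CPM in round 1 and 502, 565, 417 and 454 CPM in round 2. The rounds did not overlap, and all 4 pairs rose from round 1 to round 2. The difference was -1.29 ± 0.15 (edgeR adjusted p = 0.00127). A2m (mm10 chr6:121635376-121679227, plus strand), the gene for the protease inhibitor alpha-2-macroglobulin, was at 151, 147, 145 and 158 CPM in round 1 and 330.1, 348, 309 and 346 CPM in round 2. The libraries of a round were close to one another and the rounds did not overlap. It differed by -1.15 ± 0.15 (adjusted p = 0.00177), and both calls held without each of the 8 libraries.

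Slc30a1, a zinc exporter under the same metal-sensing factor as Mt1, was at 19.5, 22.2, 24 and 20.9 CPM in round 1 and 37.5, 30.3, 34 and 34.6 CPM in round 2 (-0.66 ± 0.15). Its call was lost when any 1 library of the wild-type SSC, KO SSC or KO BCSP pairs was left out (adjusted p up to 0.394). Mt2 was counted at 1.38 to 3.66 CPM and differed by -0.46 ± 0.26, without passing. Of 9 tested metal-response genes, Mt1 and Slc30a1 were the 2 that passed, with a list median of -0.18. Over all tested genes, 1.1% passed downwards and 0.664% upwards. On the acute-phase list of 18 genes, 14 were below 0, with a median of -0.49. A2m passed there with Cebpb, a factor that drives acute-phase genes (-1.03 ± 0.19), and with Osmr, a receptor subunit for oncostatin M (-0.89 ± 0.19), whose call was lost without either wild-type SSC library or the KO SSC library of round 2 (adjusted p up to 0.0712). Hp, the gene for haptoglobin, which neutrophils also make, passed upwards, at 3.12, 2.77, 0.813 and 1.71 CPM in round 1 and 0.0849, 0.6, 0.256 and 0.172 CPM in round 2 (2.99 ± 0.53).

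The genes of the NF-kB pathway, in which released transcription factors switch on cytokines together with their own inhibitors, were mostly lower in round 1. Of 25 tested genes, 23 were below 0, 20 of them in all 4 groups, and 12 passed downwards. Over all tested genes, 12.1% were below 0 in all 4 groups, and 1.1% passed downwards. The list median was -0.75. Of the 13 that passed in either direction, 5 kept the call without each of the 8 libraries. These were Tnfaip3, Cxcl1, Cxcl2, Csf3 and Ccl7.

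Among the inhibitors, Tnfaip3, the gene for the deubiquitinase A20, was at 31.9, 45.7, 75.8 and 99.95 CPM in round 1 and 122, 108, 173 and 163 CPM in round 2. Both genotypes showed the step, although the KO libraries of each round lay above the wild-type ones. Its difference was -1.27 ± 0.19 (edgeR adjusted p = 0.00377). Nfkbia, the gene for the inhibitor that holds NF-kB in the cytoplasm, was at 118, 127, 193 and 218 CPM in round 1 and 223, 281, 285 and 292 CPM in round 2 (-0.76 ± 0.17), and lost its call without either wild-type SSC library (adjusted p up to 0.175). Among the chemokines and cytokines, Cxcl1, which draws neutrophils, was at 63.2, 57.8, 26.2 and 43.7 CPM in round 1 and 133, 162, 47.5 and 68 CPM in round 2 (-1.01 ± 0.16). Here the KO pairs lay below the wild-type pairs in both rounds, so the rounds overlap across genotypes while every pair was lower in round 1. Cxcl2 was at 7.54, 3.75, 8.04 and 9.62 CPM in round 1 and 13.7, 16.6, 14.1 and 16.5 CPM in round 2 (-1.14 ± 0.23), Ccl7 differed by -1.22 ± 0.23 and Csf3 by -1.46 ± 0.27.

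The other NF-kB genes that passed downwards were Nfkb2 (-0.81 ± 0.15), Relb (-0.68 ± 0.14), Icam1 (-0.83 ± 0.14), Birc3 (-0.75 ± 0.17), Tnfaip2 (-0.64 ± 0.14) and Lif (-0.74 ± 0.16). Each lost its call without 1 or more of the SSC libraries: Icam1 without the KO SSC library of round 2 (adjusted p = 0.058), Nfkb2 without either KO SSC library (up to 0.125), Birc3 and Lif without any 1 of the 4 SSC libraries (up to 0.386 and 0.315), and Relb and Tnfaip2 also without either KO BCSP library (up to 0.172 and 0.225). Their directions did not change. Il1b, the gene for interleukin 1 beta, which myeloid cells make, passed upwards (4.21 ± 0.92). It stood at 4.48, 0.56, 0.181 and 0.846 CPM in round 1 and 0.0309, 0, 0.0451 and 0.181 CPM in round 2, and without the wild-type SSC library of round 1 it did not pass (adjusted p = 0.308). Tlr2, a receptor for bacterial lipoproteins outside the list and named after its values were seen, was at 44, 63.1, 81.5 and 125 CPM in round 1 and 117, 153, 183 and 212 CPM in round 2 (-1.16 ± 0.16).

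The promoters of several of these genes are shown because the genes moved together and hold matches to the motifs of NF-kB or of the metal-sensing factor. The 250 bases before the start of each gene were taken from RefSeq on GRCm38.p6, the assembly of mm10, which held an entry for 9 of the 12 NF-kB genes that passed downwards. They are written 5′ to 3′ on the strand of the gene, in lower case, with each match to the NF-kB motif (GGG, any 2 bases, then TTTCC) on either strand in capitals, and for Mt1 each match to the metal response motif TGCACNC or TGCGCNC.
Cxcl1 promoter, chr5:90890995-90891244, plus strand: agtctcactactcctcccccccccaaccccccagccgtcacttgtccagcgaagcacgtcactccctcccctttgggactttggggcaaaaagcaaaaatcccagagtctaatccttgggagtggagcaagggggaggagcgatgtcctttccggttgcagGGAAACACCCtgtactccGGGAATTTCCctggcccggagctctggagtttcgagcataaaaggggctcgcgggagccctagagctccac
Cxcl2 promoter, chr5:90903649-90903898, plus strand: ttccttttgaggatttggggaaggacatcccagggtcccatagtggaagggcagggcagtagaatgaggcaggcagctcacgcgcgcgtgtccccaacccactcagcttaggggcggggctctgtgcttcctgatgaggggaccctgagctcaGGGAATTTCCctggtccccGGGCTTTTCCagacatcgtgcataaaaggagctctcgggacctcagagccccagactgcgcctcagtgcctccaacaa
Nfkbia promoter, chr12:55492648-55492897, minus strand: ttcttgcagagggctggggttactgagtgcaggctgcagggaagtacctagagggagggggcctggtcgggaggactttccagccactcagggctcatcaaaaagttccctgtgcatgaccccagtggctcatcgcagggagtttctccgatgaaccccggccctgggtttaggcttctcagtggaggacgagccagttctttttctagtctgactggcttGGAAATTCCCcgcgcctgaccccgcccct
Tnfaip3 promoter, chr10:19015411-19015660, minus strand: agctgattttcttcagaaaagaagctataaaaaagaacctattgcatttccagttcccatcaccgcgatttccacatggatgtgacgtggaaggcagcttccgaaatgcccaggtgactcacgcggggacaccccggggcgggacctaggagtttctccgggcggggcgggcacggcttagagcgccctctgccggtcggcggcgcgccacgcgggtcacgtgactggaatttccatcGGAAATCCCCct
Mt1 promoter, chr8:94178839-94179088, plus strand: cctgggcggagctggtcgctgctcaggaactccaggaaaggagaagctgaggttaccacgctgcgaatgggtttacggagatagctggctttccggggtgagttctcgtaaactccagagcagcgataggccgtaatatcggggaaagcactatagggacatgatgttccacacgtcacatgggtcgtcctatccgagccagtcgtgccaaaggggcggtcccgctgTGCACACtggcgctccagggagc

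Cxcl1 and Cxcl2 each held 2 NF-kB matches close to one another, and Nfkbia and Tnfaip3 held 1 each in the windows shown. At another RefSeq start of Tnfaip3 (chr10:19011964-19012213, minus strand) the window held 0. A gene with more than 1 start counted as matched if any of its windows held a match. Of the 9 genes, 5 held a match (55.6%), as did 8 of 18 of the tested genes of the list and 1.79% of 13814 tested genes with a promoter entry. The list was chosen as genes of the NF-kB pathway, so its share beside that of all tested genes is no test of the round difference. The AP-1 motif TGANTCA was found in 3 of the 9, beside 6.19% of tested genes. In these windows the metal response motif was found 1 time in Mt1, 3 times in Mt2 and 1 time in Slc30a1. Bases after the RefSeq start or further upstream were not searched, so this is not a count of all such motifs near Mt1. That motif is short and stood in 32% of tested genes. A match describes the letters in the window and was not tested for binding.

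Early-response genes were high in every library of both rounds. Fos, the first of them to be transcribed after a stimulus, was at 4866, 5386, 4820.0 and 4970.0 CPM in round 1 and 6172, 7097, 6042 and 5725 CPM in round 2. It was lower in all 4 pairs, by -0.32 ± 0.16, and did not pass. Jun differed by -0.65 ± 0.16 (edgeR adjusted p = 0.0607). All 24 tested genes of the immediate-early list were below 0, 22 of them in all 4 groups, with a median of -0.53. Over all tested genes, 12.1% were below 0 in all 4 groups and 1.1% passed downwards. With edgeR, 1 of the 24 passed: Fosl1, a slower member of the Fos family, at 12, 9.78, 9.97 and 14.1 CPM in round 1 and 19.1, 19.3, 27.7 and 33.6 CPM in round 2 (-1.10 ± 0.17). Of 12 genes of the oxidative stress response, Hmox1, the haem-degrading oxygenase, was at 35.9, 30.3, 39 and 41.3 CPM in round 1 and 58.6, 77.6, 68.2 and 69.7 CPM in round 2 (-0.91 ± 0.16). Srxn1, a reductase of oxidised peroxiredoxin, was at 274, 254, 279.6 and 351 CPM in round 1 and 485, 512, 556 and 559 CPM in round 2 (-0.88 ± 0.15). Those 2 passed, both downwards, and the list median was -0.27. Heat-shock genes (16 tested, median -0.30) had 0 that passed with edgeR, where 7 had an unadjusted p under 0.05. DESeq2 called 1 of them and limma-voom 0. Endoplasmic reticulum stress genes (22 tested, median 0.13) also had 0 with edgeR, where 3 had an unadjusted p under 0.05. DESeq2 and limma-voom each called 1 of these.

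Of the genes of dividing cells, few passed, all upwards, beside 0.664% of all tested genes. All 25 tested genes of the G2 and M phases were above 0, 12 of them in all 4 groups (8.9% of all tested genes), with a median of 0.68. The 4 that passed were Bub1, a checkpoint kinase (0.98 ± 0.19), Cdk1, the kinase of mitotic entry (0.87 ± 0.21), Nusap1, a spindle protein (0.79 ± 0.18), and Top2a, the topoisomerase that untangles chromosomes (0.75 ± 0.16). Top2a stood at 84.8, 98.2, 84.4 and 64.3 CPM in round 1 and 50.6, 64.2, 36.2 and 47.8 CPM in round 2. Cdk1 stood at 37.5, 37, 40.8 and 26 CPM in round 1 and 16.5, 33.9, 14.3 and 16.3 CPM in round 2, where the wild-type BCSP pair hardly differed. Bub1 lost its call without the KO SSC library of round 1 (adjusted p = 0.075), and the other 3 when any 1 of the 4 SSC libraries was left out (up to 0.34). The 25 S phase genes had a median of 0.29, and 4 of them were above 0 in all 4 groups. Their medians in the 4 pairs were 0.39, -0.14, 0.57 and 0.37, so wild-type BCSP lay below 0. Rrm2, a subunit of ribonucleotide reductase, was the one that passed (0.83 ± 0.17), and not without either KO SSC library (adjusted p up to 0.155).

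Transcripts of replication-dependent histones, which are made in S phase and mostly lack a poly(A) tail, mostly lay the other way. Of 51 tested, 41 were below 0, 19 in all 4 groups (12.1% of all tested genes), and 5 passed, all downwards (1.1% of all tested genes). Among them H1f1 was at 1.53, 0.717, 1.35 and 0.463 CPM in round 1 and 4.95, 2.04, 3.01 and 2.19 CPM in round 2 (-1.64 ± 0.29) and H2bc11 differed by -1.40 ± 0.26. The list median was -0.66. Many of these genes are near-identical copies, so reads may be split between them. Transcripts of the mitochondrial genome, 16 tested, had a median of 0.50, and 3 passed, all upwards, beside 0.664% of all tested genes. They were mt-Nd4 (0.89 ± 0.17), mt-Nd2 (0.76 ± 0.15) and mt-Nd6 (0.70 ± 0.15), which encode subunits of respiratory complex I. The mt-Nd2 call was lost without either wild-type SSC library and the mt-Nd6 call without any of 5 libraries (adjusted p up to 0.105 and 0.168). The rounds of mt-Nd4 did not overlap, at 424, 447, 323 and 419 CPM and 235, 168, 224 and 246 CPM.

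Of the 10 sort markers tested, 2 changed with the round, beside 1.76% of all tested genes. Cd200, whose protein is used to sort SSC, was at 49.7, 67.2, 44.9 and 66 CPM in round 1 and 24.2, 37.4, 29.5 and 28.6 CPM in round 2 (0.93 ± 0.15). Pdpn, the gene for podoplanin, went the other way, at 30.6, 36.6, 37.3 and 46 CPM in round 1 and 50.0, 78.7, 64.1 and 77.6 CPM in round 2 (-0.84 ± 0.15). In both genes the rounds did not overlap, and the calls held without each of the 8 libraries. Omd, the gene for the bone proteoglycan osteomodulin, was at 326, 388, 196 and 428 CPM in round 1 and 94.3, 85.8, 130.1 and 166 CPM in round 2 (1.49 ± 0.22) and was singled out after its values were seen.

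Many of the widest differences by fold belonged to genes of white blood cells. By the rule for naming the largest changes upwards, Stfa2l1, Stfa2, Csta2, Cstdc4 and Cstdc5 (stefins, a family of protease inhibitors with near-identical copies, in which reads may be split), Clec4d, Chil3, Pglyrp1, Camp and Lilr4b came with Hoxd13 and Ighg2c. Camp, the gene for the neutrophil peptide cathelicidin, was at 13.1, 1.26, 1.25 and 4.84 CPM in round 1 and 0.123, 0, 0.113 and 0.369 CPM in round 2 (4.97 ± 0.60). The wild-type SSC library of round 1 was the highest, followed by KO BCSP of the same round. Ighg2c, an antibody gene, was at 39.1 CPM in the wild-type BCSP library of round 1 and at most 0.153 CPM in any other, and without that library its call was lost (adjusted p = 0.388). The calls of Clec4d, Pglyrp1, Cstdc4 and Cstdc5 were each lost without 1 or more single libraries (adjusted p up to 0.272).

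The summed level of the 17 neutrophil genes was 207, 22.6, 20.4 and 64.8 CPM in round 1 and 1.73, 5.78, 7.01 and 13 CPM in round 2. All 17 were above 0 in the model and 13 were above 0 in all 4 groups (8.9% of all tested genes). Of the 17, 4 passed, beside 0.664% of all tested genes that passed upwards. The list median was 4.97, or 4.84 with the genes at 0 in round 2 set at their bound. Erythroid genes summed to 48.3, 21.9, 14.2 and 28 CPM in round 1 and 8.91, 13, 8.36 and 11.9 CPM in round 2, with 10 of 10 above 0 and 3 that passed. Lymphoid genes summed to 46, 37.2, 1.33 and 10.5 CPM and 0.702, 0.69, 0.624 and 0.624 CPM, most of it, outside KO SSC, from Igkc, an antibody light chain (42.8, 35.2, 0 and 9.51 CPM in round 1 and at most 0.0154 CPM in round 2). Their part in the other results was not tested. Summed levels overlapped between rounds for the macrophage and osteoclast (68.1 to 94.6 and 56.9 to 88.2 CPM), endothelial (26.6 to 47.2 and 27.8 to 44.4 CPM), pericyte and smooth muscle, skeletal muscle and Schwann cell lists. The keratinocyte list summed lower in round 1, at 25.4 to 45.6 CPM against 48.7 to 58.8 CPM. In the model 11 of 11 were below 0 and 2 passed, but only 4 were below 0 in all 4 groups. The wild-type SSC pair hardly differed in sum (45.6 and 48.8 CPM) and had a median of 0.08. Of all tested genes, 1.1% passed downwards.

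The largest changes downwards that the naming rule allows, which leaves out Gm and Rik clone names, were smaller in fold. Sele, the endothelial adhesion molecule E-selectin, was at 0.267, 0.245, 0.885 and 0.559 CPM in round 1 and 2.85, 2.74, 1.77 and 3.43 CPM in round 2 (-2.63 ± 0.43). Gata3, a zinc-finger factor, was at 0.26, 0.306, 0.578 and 0.176 CPM in round 1 and 1.47, 1.59, 1.06 and 1.49 CPM in round 2 (-2.20 ± 0.47), and Mmp10, a matrix protease, differed by -2.60 ± 0.52. All 3 were at low levels, and their rounds did not overlap. The same rule named AU022754, Syt2, Mid1-ps1, Rdh8, Hoxc13, Mmp19, Fam222a, Nlrc5 and Tmem267. Tmem267 was at 1.7, 2.54, 3.04 and 4.21 CPM in round 1 and 9.53, 6.49, 9.21 and 11.7 CPM in round 2 (-1.72 ± 0.22). Of these 12, the calls of Gata3, Mmp10, AU022754, Syt2, Mid1-ps1, Hoxc13, Fam222a and Nlrc5 were each lost without 1 or more single libraries (adjusted p up to 0.229). The pseudogene Gm7993, outside the rule, fell further (-4.41 ± 0.51).

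The 4 pairs were then compared with one another, first over the genes that passed and then over all genes. Among genes that passed and reached a mean of 1 CPM in the higher round, the 126 higher genes had median differences of 1.17, 1.48, 1.28 and 1.37. The 239 lower genes had medians of -0.97, -0.91, -1.10 and -1.04. Both sets were chosen by the contrast over these same pairs, which favours like amounts in each pair. Their medians therefore only describe them. Across all 12639 genes of at least 1 CPM, the wild-type BCSP pair did not follow the others. The round differences of the wild-type SSC, KO SSC and KO BCSP pairs had rank correlations of 0.533 (wild-type SSC with KO SSC), 0.561 (wild-type SSC with KO BCSP) and 0.621 (KO SSC with KO BCSP). Those of the wild-type BCSP pair were -0.049 with wild-type SSC, 0.0276 with KO SSC and -0.188 with KO BCSP. After the trend with exon length was taken out of each pair, they were 0.124, 0.126 and -0.0276, and the other 3, in the order above, were 0.511, 0.501 and 0.606. These correlations are across genes, which are not independent replicates, and the pairs share no library.

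The same could be seen in genes called without a pair and then read in it. Of 3901 genes that passed without the wild-type BCSP pair and had a value in it, 43.2% moved the same way there, beside 43.8% of all tested genes. Of 440 that passed without the KO BCSP pair, 91.4% moved the same way in it, beside 58.9% of all tested genes. Of 270 that passed without wild-type SSC, 98.5% did in it (61.8% of all), and of 357 without KO SSC, 91.6% (63.8% of all). Genes that passed within SSC alone, 1955 in number, moved the same way in 95.4% of cases in KO BCSP (69.8% of all) and in 54.7% in wild-type BCSP (46.2% of all).

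**Figure D3:**
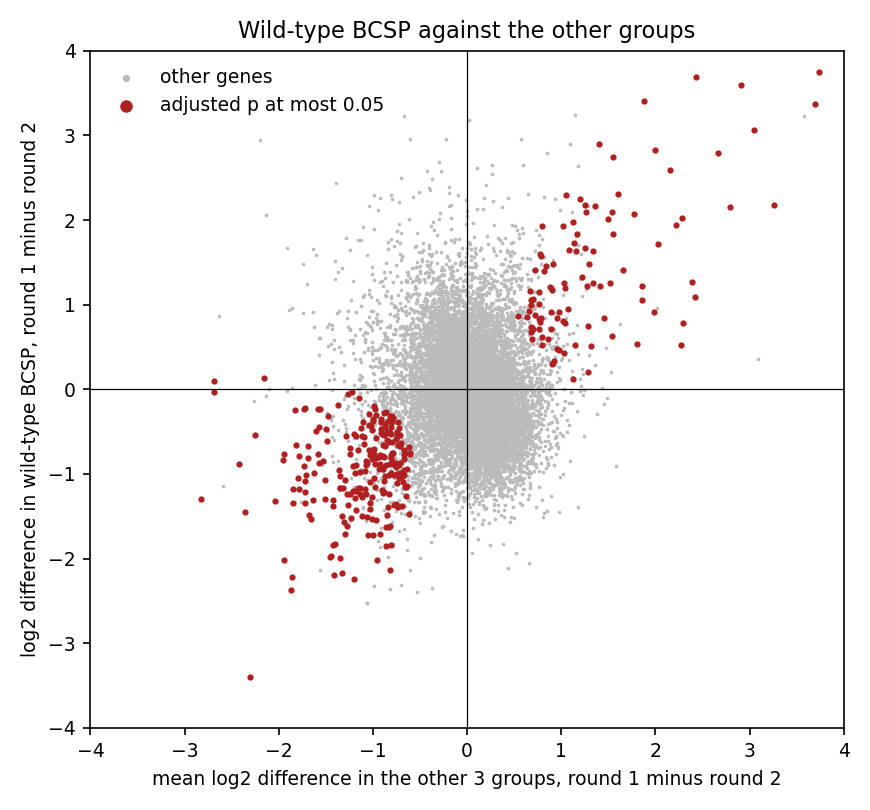
Log2 difference between rounds in the wild-type BCSP pair (vertical axis) against the mean of the other 3 pairs (horizontal axis), 1 point per gene of at least 1 CPM (12639 genes, of which 25 lie outside the axes). Red points are the 347 of these genes that passed in the model over all groups, 345 of them in the same direction on both axes, as the choice of the genes favours. Of the 12292 other genes, drawn in grey, 40.3% had the same sign on both axes.

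Exon length moved with the differences over all genes. The rank correlation of the round difference with exon length was -0.292 in wild-type SSC, 0.456 in wild-type BCSP, -0.131 in KO SSC and -0.311 in KO BCSP, over 12636 genes. In wild-type BCSP the shortest 10% of genes had a median difference of -0.57 and the longest 10% of 0.43. In KO BCSP the same sets stood at 0.31 and -0.24, the opposite order. The model over all groups gave -0.0567, near 0. Long and short genes therefore had opposite slopes in the wild-type BCSP pair and in the other 3, which offset one another in the model.

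**Figure D4:**
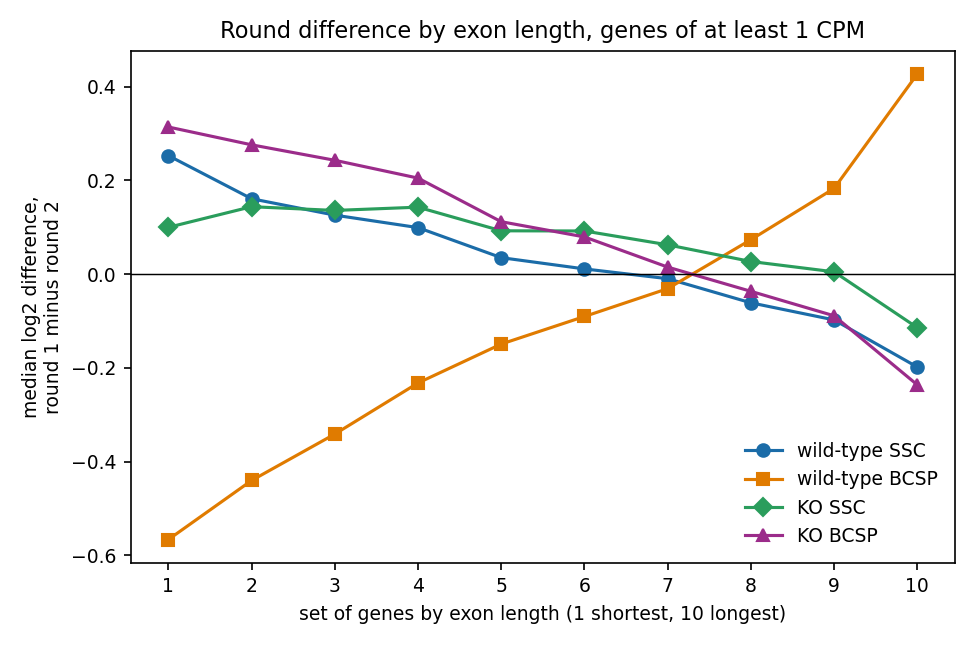
Median log2 difference between rounds (vertical axis) in 10 equal sets of genes ordered by exon length (horizontal axis, shortest to longest), with 1 line per group, over genes of at least 1 CPM. The line of wild-type BCSP rises from -0.57 to 0.43, and those of wild-type SSC and KO BCSP fall from 0.25 to -0.20 and from 0.31 to -0.24.

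Single libraries stood apart in this respect. The wild-type BCSP library of round 2 had the most counts, the fewest genes detected and a rank correlation of -0.498 between exon length and its deviation from the mean of all libraries. The KO BCSP library of round 2 was the opposite extreme, at 0.357. Among genes of at least 1 CPM, those that passed did not lean strongly to either length. Their median exon length was 4197 bases for the 113 higher and 4213.5 bases for the 234 lower genes, beside 4508 bases for all 12639. Their median GC content was 46% for the higher and 51.7% for the lower genes, beside 49.7% for all of at least 1 CPM. The rank correlation of GC content with the round difference was -0.192 in the model over all groups and -0.452 in the wild-type BCSP pair. With exon length as an offset in the model, 578 genes passed and 382 of the 390 were among them. Short genes of the core machinery showed the opposite slopes: cytosolic ribosomal protein genes (82 tested) had median differences of 0.32, -1.12, 0.03 and 0.30 in the 4 pairs, and nuclear oxidative phosphorylation genes (28 tested) of 0.46, -0.64, 0.30 and 0.54. Of both lists 0 passed with edgeR, where 4 ribosomal and 1 oxidative phosphorylation gene had an unadjusted p under 0.05. DESeq2 called 1 ribosomal gene and 0 of the other list, and limma-voom 0 of either.

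**Figure D5:**
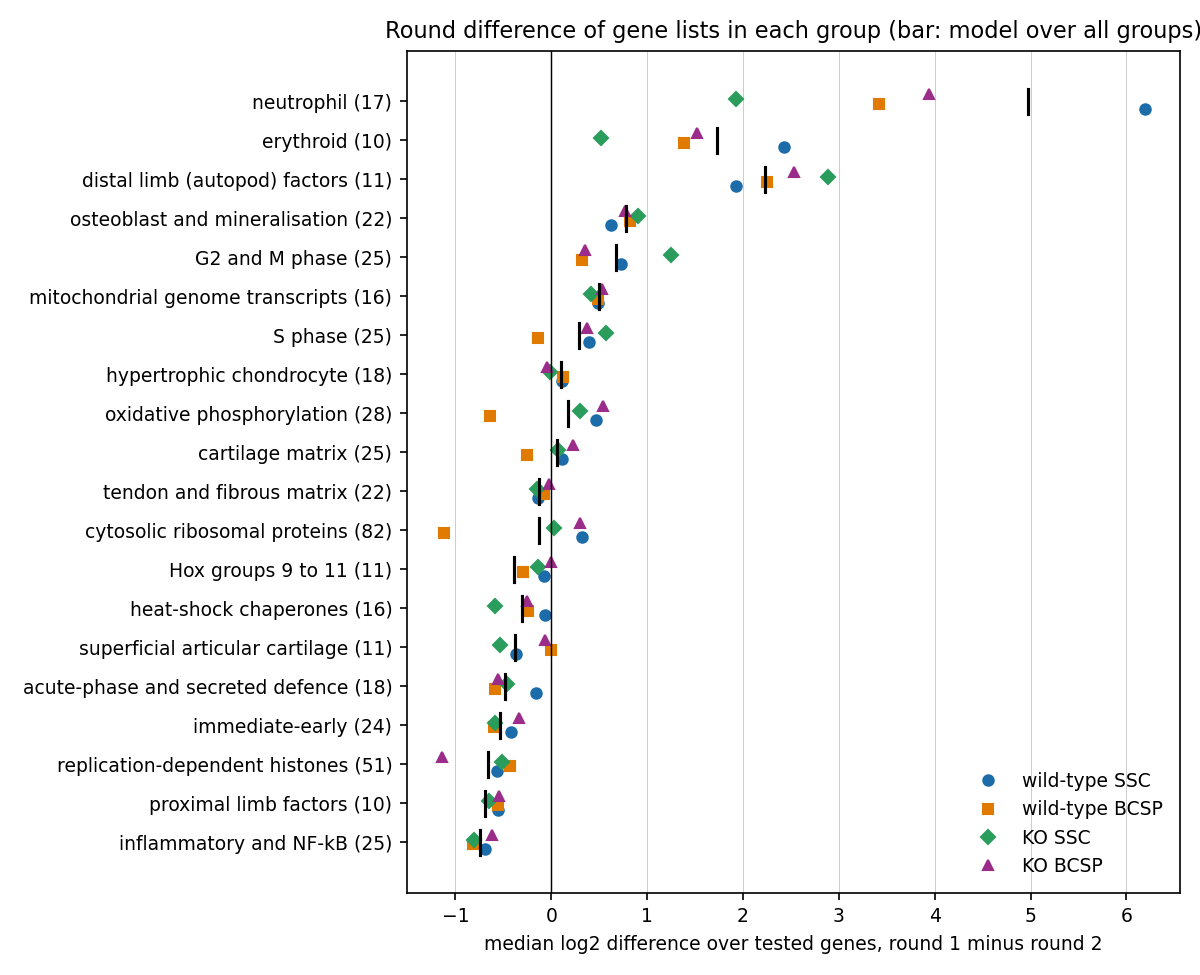
Median log2 difference between rounds (horizontal axis, round 1 minus round 2) of gene lists, with the number of tested genes in brackets. Points are the 4 groups, and the black bar is the median in the model over all groups. The distal limb, osteoblast, mitochondrial, proximal limb and NF-kB lists have all 4 points on 1 side of 0, while in the ribosomal protein, oxidative phosphorylation and cartilage matrix lists wild-type BCSP lies below 0 and the other 3 groups above it.

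Whether the round acted differently by population or genotype was tested with interaction terms, in a model that left 1 residual degree of freedom. With population, 1 gene passed (0.00451%), the antibody gene Ighg2b, and 361 had an unadjusted p under 0.05. With genotype, 20 passed (0.0903%) and 899 had an unadjusted p under 0.05. Among the 20 were the neutrophil genes S100a9, Mmp8, Retnlg and Stfa1, each of which was highest in the wild-type SSC library of round 1. A gene at 0 counts in most libraries could be missed by this test. Cyp2a5, at 3.66 and 3.94 CPM in the wild-type libraries of round 1 and at most 0.00798 CPM elsewhere, did not pass. Of the 390 genes changed by the round, 6 were among those called for genotype. Hoxd13 was one of the 6: its round difference was 2.83 greater in KO than in wild type (adjusted p = 0.00396), with round 2 levels of 0.255, 0.349, 0.12 and 0 CPM. All 4 pairs were higher in round 1, and since the KO BCSP library of round 2 held 0 counts, the size of this interaction is no bound.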

How the data were processed

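The deposited table holds whole-number counts per gene for the 8 libraries, a unit taken from its values. Per the submitters' processing notes, the authors used STAR, featureCounts and DESeq2 with mm10. Its title points to htseq, and the annotation and strand of counting are not given in the sources used here. Column names were matched to titles (SCC read as SSC, BCP as BCSP). Positions, exon lengths and GC content came from GENCODE M21, which matched 55230 of 55471 entries.

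Counts were tested with edgeR 4.0.16 in R 4.3.3: TMM scaling, filterByExpr (minimum count 10, total 15), and a robust quasi-likelihood fit with 1 term per group and 1 for the round (3 residual degrees of freedom). SE is the log2 difference over the square root of F. Adjustment was Benjamini-Hochberg over 22153 genes, threshold 0.05. The filtered genes held 99.9854% of counts, and 3 counts equal 0.0209 to 0.0271 CPM. Differences within single pairs used log2 CPM with a prior count of 2. Interaction terms left 1 residual degree of freedom. The replicate number in the titles is the round itself, so it is the contrast, and the blocks are the groups. The fit was tested on simulated data. Alternatives used limma 3.58.1, DESeq2 1.42.0, other scalings and filters, offsets, and each library left out.

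Genes were named by a rule: the 5 marker genes, the 12 largest changes per direction among genes of at least 1 CPM with 1 direction in all groups and a symbol other than a Gm number or Rik clone name, up to 4 members of a list by lowest p, and every limb gene. Others were named after their values were seen. The members and lists were chosen with earlier results of these data known. The 50 lists matched all symbols but Ctgf, and the pattern that finds histone genes was widened once the symbols of the table were seen. Some genes are not reported here.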

Additional observations from a re-analysis of the deposited data

Results flagged for a closer look

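Among 258 sets of 4 libraries of a round (mostly named genes that passed a test, and summed lists), 26 held a library far from the other 3 by Dixon's ratio. Chance gives this in about 1 set of 20 for 4 draws from the same normal population. Here the 4 libraries come from different groups, and some sets are mostly at 0, so that rate does not apply. The wild-type SSC library of round 1 was low for Hoxd13 (18.6 CPM), Hoxd11 (1.49 CPM) and the summed distal limb list (42.6 CPM), and high for Il1b (4.48 CPM), S100a9 (95.3 CPM), Mmp8 (3.19 CPM), Retnlg (8.03 CPM), Stfa2 (19.2 CPM), Csta2 (3.77 CPM), Clec4d (4.04 CPM) and the summed skeletal muscle list (63.0 CPM). The same group's library of round 2 was high for Col10a1 (369.8 CPM) and low for Nfkbia (223 CPM). It was the only one of its round with a count of Bpifa1 (0.00772 CPM). In wild-type BCSP, the round 1 library was high for Bglap2 (4.14 CPM), Rrm2 (29.3 CPM) and Ighg2c (39.1 CPM), and the round 2 library for Cdk1 (33.9 CPM), Stfa2l1 (0.0209 CPM, the others at 0) and summed cartilage matrix (432000.0 CPM). The KO BCSP library of round 1 was low for the summed G2 and M phase list (483 CPM), and that of round 2 was low for Nkx3-2 (9.37 CPM) and high for Chil3 (0.115 CPM) and Cstdc4 (0.164 CPM, the others at 0). The KO SSC library of round 1 was low for the mitochondrial list (6620.0 CPM), and that of round 2 was high for keratinocyte genes (58.8 CPM).

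The round difference itself differed by genotype for 9 genes named. On the log2 scale and as KO minus wild type, the interaction was 2.83 for Hoxd13, -5.49 for Il1b and -3.72 for Camp (edgeR adjusted p = 0.00396, 0.0403 and 0.00785). Wild-type SSC and BCSP of round 2 were at 0.0309 and 0 CPM for Il1b and 0.123 and 0 CPM for Camp. Both genes were highest in wild-type SSC of round 1 (4.48 and 13.1 CPM). In BCSP of round 1, KO lay above wild type (Il1b 0.846 against 0.56 CPM, Camp 4.84 against 1.26 CPM). For Gm7993 the interaction was 2.39 (adjusted p = 0.000256). In the neutrophil genes Mmp8 (-9.27), Retnlg (-9.84) and S100a9 (-9.41) and the stefins Cstdc5 (-8.85) and Stfa1 (-11.54), wild-type libraries of round 2 held no or almost no counts, so these sizes depend on the prior count and are no bound. By population, as SSC minus BCSP, Ighg2b differed (-16.6, adjusted p = 1.27e-10), with 14.5 and 16.4 CPM in the BCSP libraries of round 1 and at most 0.0687 CPM in the other 6. Each rests on 1 residual degree of freedom.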

How the results depend on the processing

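All 390 genes kept their direction in every setting in which they were tested. The count was 394 and 387 with other scalings, 441 with limma-voom, 937 with DESeq2, 861 with no filter and 232 with a filter of 1 CPM in 4 libraries. It was 578 with exon length offsets and 408 with GC offsets, the latter added after the data were seen. With no replicate block (the groups left out) it was 209. Leaving out 1 library gave 275 to 3909, and single strata gave 1955 (SSC), 49 (BCSP), 170 (wild type) and 3650 (KO). The share of higher genes ran from 28.9% to 81.6%, beside 37.7%, and the cause was not tested. The population interaction gave 0 genes with DESeq2, 0 with limma-voom and 4 with length offsets, and the genotype interaction 12, 1 and 44. Leaving out a library there was not run, as no residual degree of freedom is left. Of 104 genes named and called, 56 kept the call without each of the 8 libraries. The cartilage matrix median (0.0623) ran from -0.0521 to 0.168 with 1 library left out. It turned to -0.0187 and -0.0182 without wild-type SSC of round 1 or 2, -0.0521 and -0.0519 without KO BCSP of round 1 or 2, -0.054 within BCSP and -0.0895 within wild type. With 1 library per group and round, a library cannot be told apart from its group within a round.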

Other observations

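Genes of the nasal lining were counted in the wild-type libraries of round 1 and almost nowhere else. Cyp2a5, a cytochrome of olfactory mucosa and liver, stood at 3.66 and 3.94 CPM in wild-type SSC and BCSP of round 1 and at most 0.00798 CPM in the other 6 libraries. Cyp2g1, an olfactory cytochrome, stood at 1.80 and 2.07 CPM, and the other 6 libraries were at 0. Bpifa1, a secreted protein of the airway surface, stood at 3.01 and 3.33 CPM, and Omp, the marker of mature olfactory neurons, at 1.97 and 2.50 CPM. Omp was at most 0.174 CPM elsewhere. These genes were chosen after their values were seen, and all samples are labelled femur.

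Some genes of antigen presentation, chosen after their values were seen, were lower in round 1. H2-Q4, a class I histocompatibility gene, was at 51.7, 42.9, 52.1 and 62.2 CPM in round 1 and at 116, 85.3, 203 and 210.0 CPM in round 2 (-1.47 ± 0.18). H2-K1 differed by -0.87 ± 0.18, and Nlrc5, the activator of this gene class, by -1.90 ± 0.39. All 3 passed with edgeR, but the calls of H2-K1 and Nlrc5 were lost without either KO SSC library (adjusted p up to 0.223 and 0.147). Of other class I genes, H2-D1 (-0.69 ± 0.19), H2-Q7 (-0.54 ± 0.18) and H2-T22 (0.08 ± 0.19) did not pass. Close paralogs may share reads here. A pseudogene, Gm7993, was at 0.985, 0.516, 3.25 and 3.22 CPM in round 1 and at 37.4, 35.9, 30.3 and 32.9 CPM in round 2 (-4.41 ± 0.51). Its call was lost without any 1 wild-type library or the KO BCSP library of round 1 (adjusted p up to 0.297). Such copies also share reads with their parent gene.

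Hk2, the hexokinase of glycolysis, was lower in round 1 (-0.69 ± 0.15), and its call was lost when any 1 library other than those of wild-type BCSP was left out. The glycolysis and hypoxia list of 27 genes had 3 that passed, all downwards (1.1% of all tested genes did), with a median of -0.16. In the 4 pairs its medians were -0.10, -0.76, -0.12 and 0.05.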
